A study of Mus musculus with 6 samples.

Results

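Cadherins and protocadherins are transmembrane proteins that join cells through calcium-dependent contacts, and 57 of their genes were followed here in adult mouse cortex with and without a targeted deletion of Dicer. The genes were those whose symbol in the array's annotation is Cdh with a number or begins with Pcdh and whose probe set lists 1 gene, 57 of the 19938 genes measured. They comprised 5 classical cadherins of type I, 13 of type II, 5 other cadherins, 12 non-clustered protocadherins and 22 beta protocadherins. All 14 alpha protocadherins share 1 probe set on this array and were left out for that reason. Gamma protocadherins were not analysed here.

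The 3 animals labelled Dicer KO were C57BL/6 mice with the genotype CamKII-Cre/+;Dicer flox/flox. Their 3 littermate controls either carried the transgene and a single floxed allele (CamKII-Cre/+;Dicer flox/+) or both floxed alleles without the transgene (+/+;Dicer flox/flox), and which control is which is not labelled. Every animal thus carried at least 1 floxed Dicer allele, and some controls may carry the Cre transgene. The CamKII promoter drives Cre in excitatory forebrain neurons, so other cortical cells keep the gene. The age beyond "adult" is not given in the sources used here. Total RNA of the adult forebrain cortex of each animal, 200 ng, was measured on 1 Affymetrix whole-transcript array. Values are log2 expression per probe set. Every difference is the mean of the arrays labelled Dicer KO minus the mean of the controls.

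Classical cadherins bind the same kind of cadherin on the neighbouring cell, and their cytoplasmic tails hold catenins, which tie the contact to actin. Type I and type II members differ in the surface by which they bind. Clustered protocadherins are expressed in combinations that differ from neuron to neuron and let the branches of a neuron tell themselves from those of others. The choice among their promoters depends on CTCF, cohesin and DNA methylation. Non-clustered protocadherins adhere more weakly, and several of them act on the actin-regulating WAVE complex or on the uptake of other cadherins at synapses.

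Several properties of the 6 arrays bear on all values below. Dicer1 itself read 9.58, 9.68 and 9.46 in the arrays labelled Dicer KO and 9.17, 9.21 and 9.18 in the controls. It was therefore higher, not lower, in the labelled KO arrays, and these values do not check the deletion. The 12 olfactory bulb genes were all highest in control array 1, by 1.11 on average over the other 5 arrays. Transcripts of the Y chromosome and Xist placed 2 males and 1 female among the labelled KO animals and 1 male and 2 females among the controls. In bulk tissue, fewer cells of a type and less RNA per cell cannot be told apart.

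None of the 57 genes passed the threshold in the comparison of labelled Dicer KO with control (limma, adjusted p under 0.05 over all genes), where 0.281% of all genes did. At a looser adjusted p of 0.1 there was 1, Pcdh20, where 1.60% of all genes passed. At an unadjusted p under 0.05 there were 9 members, or 15.8%, beside 14.4% of all genes. Of these 5 were higher, where 7.01% of all genes were, and 4 were lower, where 7.39% were. In 10 members, 17.5%, every array of one group lay beyond every array of the other, beside 20.3% of all genes. These shares are near the background, so they are no result about the family. The median difference of the 57 genes was -0.0074, beside -0.0092 over all genes. On the log2 scale 41 members (71.9%) lay within 0.2 of 0, beside 77.6% of all genes. The 95% interval of the difference stayed within 0.5 of 0 for 40 of the 57 (70.2%) and for 81.9% of all genes.

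**Figure D1:**
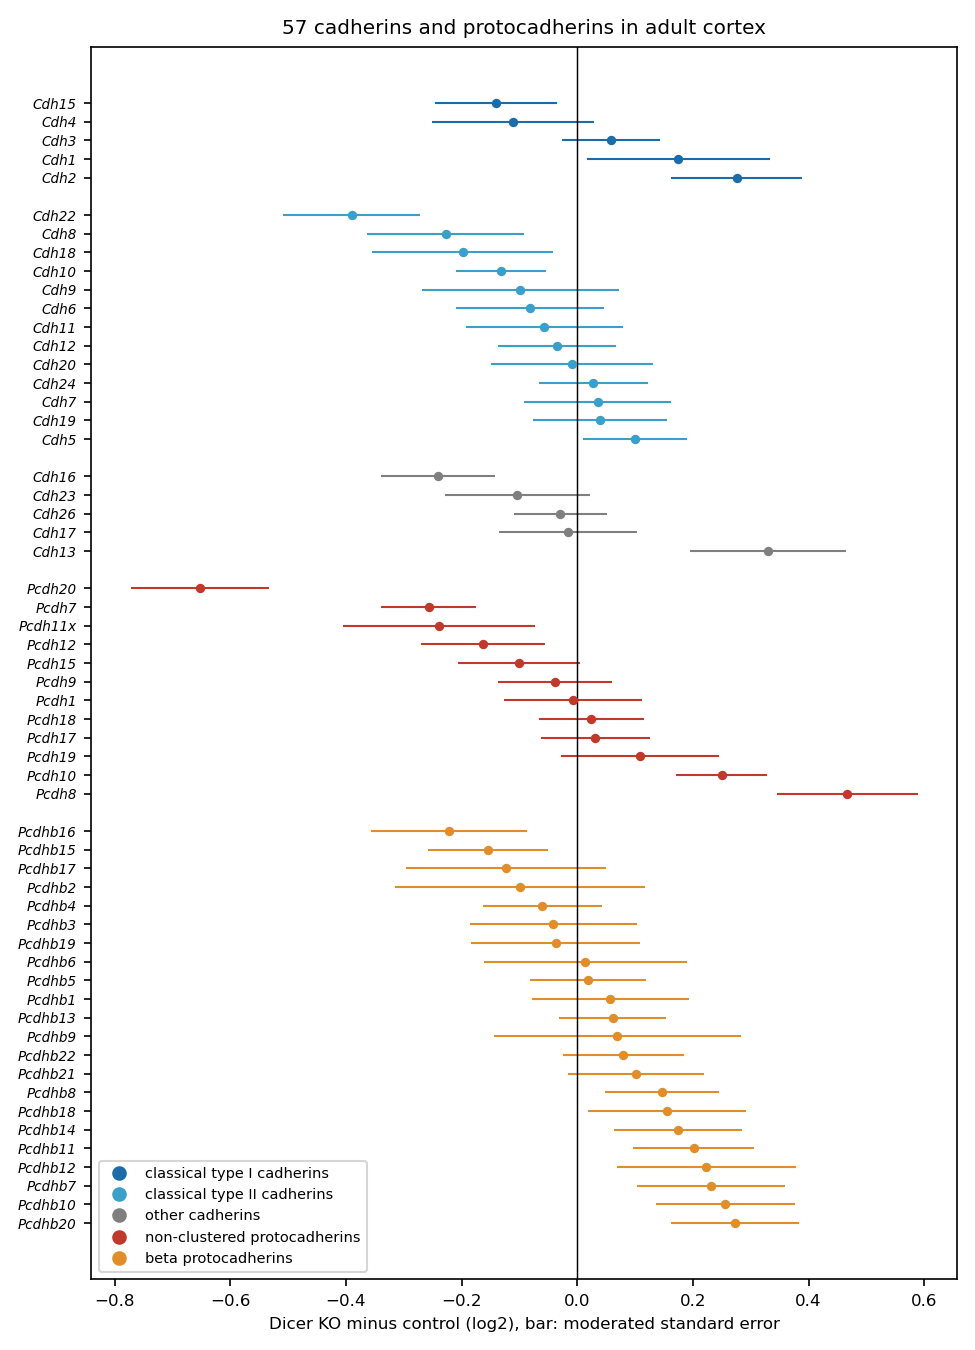
Difference of the mean log2 expression, arrays labelled Dicer KO minus control (3 arrays each), for the 57 genes by subgroup. Points are differences and bars are the moderated standard error of limma; the lowest is Pcdh20 at -0.65 and the highest Pcdh8 at 0.47, and 41 genes lie within 0.2 of 0.

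The members varied between animals of the same group. The median within-group SD was 0.17 over the 57 genes and 0.13 over all genes, and 43 of the 57 members lay above the median of all genes. It was 0.19 for type II cadherins, 0.18 for beta protocadherins, 0.17 for other cadherins, 0.15 for type I cadherins and 0.13 for non-clustered protocadherins. The last of these groups held both the lowest and the highest difference of the family.

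Among the 12 non-clustered protocadherins, 2 were higher and 2 lower at an unadjusted p under 0.05. These are 33.3%, beside 14.4% of all genes in either direction. The median difference of the 12 was -0.023. Pcdh20, one of 4 protocadherin genes of this class on chromosome 14, read 8.15, 8.49 and 8.35 in the labelled KO arrays and 9.17, 8.90 and 8.88 in the controls. All 3 labelled KO arrays lay below all 3 controls, with a gap between the groups wider than the range within either. The difference was -0.65 ± 0.12 (SE; 95% interval -0.92 to -0.38), or 1.57-fold lower, with a limma adjusted p of 0.0689. With the dimmer genes left out before the fit, which leaves fewer genes to adjust over, the limma adjusted p was 0.0434. Over the fits without 1 array it was 0.0699 to 0.210.

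Pcdh8, also known as arcadlin, is induced by neuronal activity and promotes the uptake of N-cadherin at synapses. It read 8.30, 8.39 and 8.02 in the labelled KO arrays and 7.60, 7.81 and 7.90 in the controls. The groups did not overlap, although labelled KO array 3 and control array 3 were close. The difference was 0.47 ± 0.12 (SE; 95% interval 0.19 to 0.74), or 1.38-fold higher (limma adjusted p = 0.138).

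Pcdh20 and Pcdh8 are the members with the lowest and the highest difference, so the 250 bases before their annotated starts are shown. Both come from RefSeq on build GRCm38.p6 and are given 5′ to 3′ on the minus strand, Pcdh20 at chr14:88471397-88471646 and Pcdh8 at chr14:79771313-79771562. Capitals mark CG, the dinucleotide that DNA methyltransferases act on.
Pcdh20: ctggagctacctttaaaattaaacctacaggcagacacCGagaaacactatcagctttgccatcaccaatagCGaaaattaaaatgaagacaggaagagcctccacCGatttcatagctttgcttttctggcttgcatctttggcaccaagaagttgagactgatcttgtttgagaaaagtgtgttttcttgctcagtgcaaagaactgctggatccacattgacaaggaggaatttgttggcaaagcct
Pcdh8: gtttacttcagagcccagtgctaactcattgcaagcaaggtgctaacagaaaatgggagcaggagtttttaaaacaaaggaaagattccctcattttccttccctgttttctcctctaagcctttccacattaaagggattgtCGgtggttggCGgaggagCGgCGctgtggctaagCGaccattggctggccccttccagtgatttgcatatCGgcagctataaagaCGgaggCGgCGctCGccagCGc
The stretch of Pcdh20 holds 3 CG and that of Pcdh8 holds 11, all towards the start of the gene. At least 3 CG stand in 71.0% of the 32851 promoters of the table, and at least 11 in 35.6%. The median over all promoters was 6, and over the 22 members with a listed promoter it was 9. These counts describe the sequence only, and methylation was not measured.

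Pcdh10, a protocadherin that recruits the WAVE complex and takes part in axon growth, read 10.71, 10.73 and 10.76 in the labelled KO arrays and 10.50, 10.45 and 10.50 in the controls. Replicates lay very close together, with SDs of 0.028 and 0.033 (n = 3 each), and the groups did not overlap. The difference was 0.25 ± 0.078 (SE; limma adjusted p = 0.199). Pcdh7 read 9.99, 10.04 and 9.93 in the labelled KO arrays and 10.28, 10.26 and 10.19 in the controls, again without overlap. Its difference was -0.26 ± 0.082 (SE; limma adjusted p = 0.207), of about the size of that of Pcdh10 and of opposite sign.

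Further non-clustered protocadherins lay nearer to 0. Pcdh9 was at -0.039 ± 0.098 and Pcdh17, which acts at presynaptic terminals, at 0.031 ± 0.094 (SE). Both have 95% intervals inside 0.3 of 0, from -0.26 to 0.18 and from -0.18 to 0.24. Pcdh19, the X-linked gene of a female-limited epilepsy, was at 0.11 ± 0.14. It read 8.71, 8.63 and 8.92 in the labelled KO arrays and 8.39, 8.66 and 8.89 in the controls, so the groups overlapped almost fully. Pcdh15, part of the tip links of hair cells and also a gene of oligodendrocyte precursors, was at -0.10 ± 0.11 (SE). With labelled KO array 1 left out its difference was -0.017, and leaving out labelled KO array 3 moved it to -0.19. Averaged per array and relative to the control mean, the 8 oligodendrocyte precursor markers stood at -0.14, -0.24 and -0.21 in the labelled KO arrays, with -0.018, -0.028 and 0.046 in the controls. Among them Gpr17 was at -0.34 and Lhfpl3 at -0.29, neither past the threshold, and their part in the value of Pcdh15 was not tested. The remaining members of this class, Pcdh1, Pcdh11x, Pcdh12 and Pcdh18, lay between -0.24 and 0.024.

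**Figure D2:**
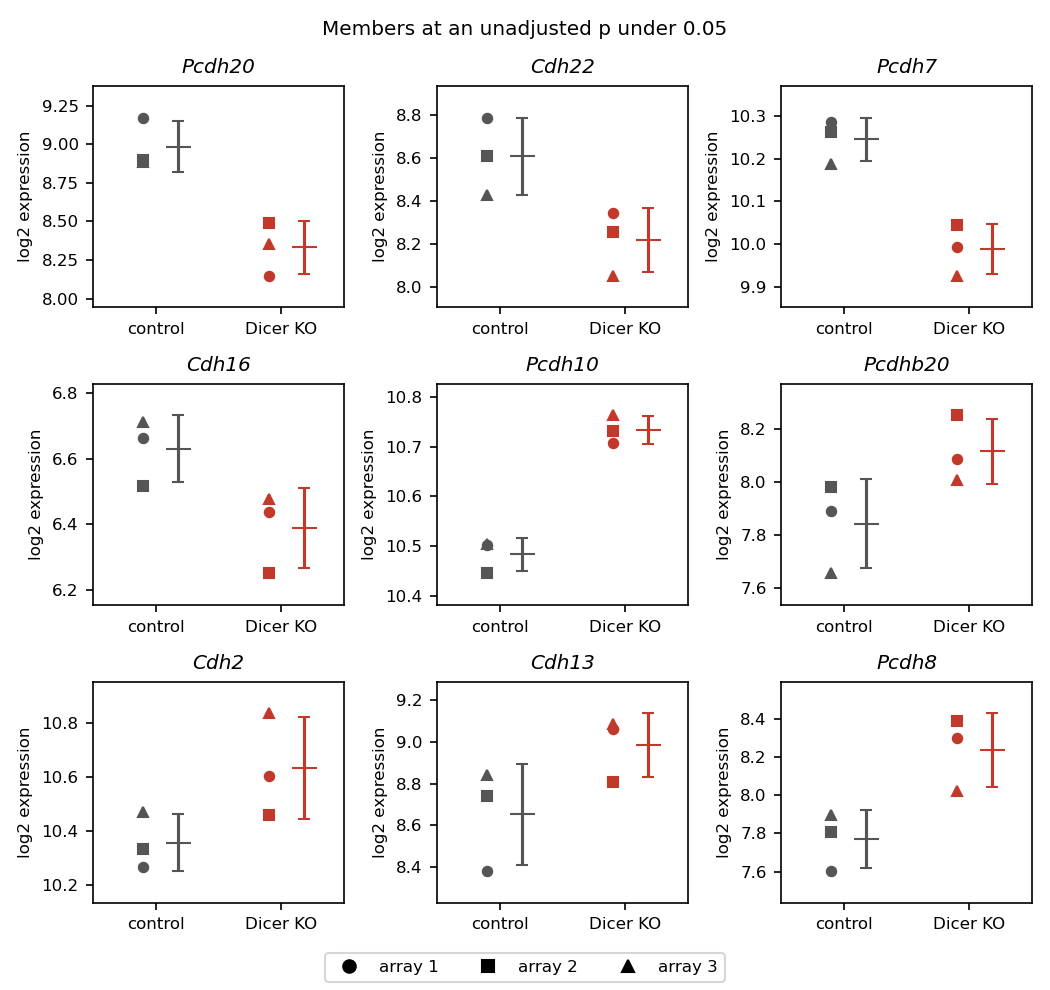
Log2 expression per array of the 9 members at an unadjusted p under 0.05, with the group mean and SD (n = 3) beside the points and 1 symbol per array number; each panel has its own axis, which does not start at 0. Groups do not overlap in 7 panels, and in Cdh2 and Cdh13 the highest control array lies above labelled KO array 2. The panels were picked by that p, which favours groups without overlap. Groups did not overlap in 17.5% of all 57 members, beside 20.3% of all genes.

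Of the 5 classical type I cadherins, 1 (20%) was higher and none lower at an unadjusted p under 0.05, beside 14.4% of all genes. Their median difference was 0.058. This median was -0.0025 with labelled KO array 3 left out, and 0.099 when control array 1 was left out. Cdh2, the N-cadherin of neural and synaptic contacts, read 10.60, 10.46 and 10.83 in the labelled KO arrays and 10.27, 10.33 and 10.47 in the controls. Labelled KO array 2 lay just under the highest control. The difference was 0.28 ± 0.11 (SE; 95% interval 0.019 to 0.53), with a limma adjusted p of 0.315. Without labelled KO array 3 the difference of Cdh2 was 0.17. Cdh2 is also made by astrocytes. The 9 astrocyte markers averaged 0.15, -0.016 and 0.54 above the control mean in labelled KO arrays 1 to 3, with -0.092 to 0.093 in the controls. Labelled KO array 3 was highest and array 2 lowest of the labelled KO arrays for both Cdh2 and these markers, and the part of astrocytes in the value of Cdh2 was not tested.

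Cdh1, the E-cadherin of epithelia, was at 0.17 ± 0.16, and its 3 labelled KO values of 6.96, 6.68 and 7.35 spanned the controls of 6.71, 6.81 and 6.94. Leaving out labelled KO array 3 gave -0.0025 and leaving out labelled KO array 2 gave 0.34. Cdh15, the M-cadherin of muscle, was at -0.14 ± 0.11 and Cdh4, or R-cadherin, at -0.11 ± 0.14 (SE). Cdh4 was highest in control array 1, at 8.54 where the other arrays read 7.98 to 8.29, and without that array its difference was 0.023. Without control array 2 the difference of Cdh4 was -0.26. For Cdh15 it was -0.053 without control array 1 and -0.23 without control array 2. Cdh3, the P-cadherin, was at 0.058 ± 0.084. All values of Cdh3 and Cdh15, and those of Cdh1 apart from labelled KO array 3, lay below the median of their array (7.13 to 7.22). Signal over background is unknown there.

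Of the 13 type II cadherins, 1 (7.69%) was lower and none higher at an unadjusted p under 0.05, beside 14.4% of all genes. Of the 13, 9 lay below 0, beside 10504 of the 19938 genes, and the median of the 13 was -0.057, beside -0.0092 over all genes. The direction of this median turned with 1 array: it was 0.024 with control array 3 left out, and -0.13 when labelled KO array 3 was left out. Cdh22, or PB-cadherin, named for pituitary and brain, read 8.34, 8.25 and 8.05 in the labelled KO arrays and 8.78, 8.61 and 8.42 in the controls. The lowest control lay a little above the highest labelled KO array. The difference was -0.39 ± 0.12 (SE; 95% interval -0.66 to -0.12), or 1.31-fold lower (limma adjusted p = 0.193). Without control array 1, which was the highest, it was -0.30.

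Cdh10 differed little but without overlap. It read 9.99, 10.06 and 10.02 in the labelled KO arrays and 10.16, 10.18 and 10.12 in the controls, a difference of -0.13 ± 0.078 (SE; limma adjusted p = 0.501). Cdh8, which takes part in the wiring of cortical circuits, was at -0.23 ± 0.14 (SE). Its controls spread from 9.65 to 10.18 and enclosed 2 of the 3 labelled KO values, 9.70 and 9.82. The difference of Cdh8 was -0.36 without control array 1 and -0.099 without control array 3.

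Type II members of non-neuronal cells lay close to 0. Cdh5, the VE-cadherin of endothelial junctions, read 7.91, 7.92 and 8.13 in the labelled KO arrays against 7.87, 7.90 and 7.89 in the controls. The groups did not overlap, but labelled KO arrays 1 and 2 lay only just above the highest control, and the difference of 0.10 ± 0.090 (SE) was 0.029 without labelled KO array 3. The 9 measured endothelial markers had array means of -0.051 to 0.16 in the labelled KO arrays and of -0.058 to 0.10 in the controls. Cdh11, the cadherin of mesenchymal cells and of some neurons, was at -0.057 ± 0.14, while the 10 meningeal and fibroblast markers averaged 0.35, 0.041 and 0.28 above the control mean in the labelled KO arrays, with -0.10 to 0.052 in the controls. Cdh19, a gene of glia, was at 0.040 ± 0.12 (SE). The other type II members, Cdh6, Cdh7, Cdh9, Cdh12, Cdh18, Cdh20 and Cdh24, lay between -0.20 and 0.035.

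The 5 other cadherins lack the classical architecture. Cdh13, or T-cadherin, is held in the membrane by a lipid anchor in place of a transmembrane segment. It read 9.06, 8.81 and 9.08 in the labelled KO arrays and 8.38, 8.74 and 8.84 in the controls. The groups overlapped by a narrow margin, and control array 1 was the lowest of the 6. The difference was 0.33 ± 0.13 (SE; 95% interval 0.024 to 0.64; limma adjusted p = 0.312), and without control array 1 it was 0.19. Cdh16, a cadherin of kidney epithelium, read 6.44, 6.25 and 6.48 in the labelled KO arrays and 6.66, 6.52 and 6.71 in the controls, a difference of -0.24 ± 0.098 (SE; limma adjusted p = 0.308). All of these values lay below the array medians of 7.13 to 7.22, where the deposited values leave signal over background unknown. Cdh17, Cdh23 and Cdh26 lay between -0.10 and -0.016.

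The 22 beta protocadherins are neighbouring genes, each read as its own probe set because they share no constant exons. Their sequences are alike, and probes may pick up a related transcript, so a single gene's value is uncertain. Of the 22, 15 lay above 0, beside 9434 of the 19938 genes. The median difference of the 22 was 0.065, beside -0.0092 over all genes. At an unadjusted p under 0.05, 1 (4.55%) was higher and none lower, beside 14.4% of all genes. Pcdhb20 read 8.09, 8.25 and 8.01 in the labelled KO arrays and 7.89, 7.98 and 7.65 in the controls. Its lowest labelled KO array stood just above the highest control, and the difference was 0.27 ± 0.11 (SE; limma adjusted p = 0.309). Without control array 3 it was 0.18. Pcdhb10 read 7.78, 8.14 and 7.79 in the labelled KO arrays and 7.67, 7.76 and 7.51 in the controls, a difference of 0.26 ± 0.12 (SE; limma adjusted p = 0.378). Without labelled KO array 2 it was 0.14. The other 20 lay between -0.22 and 0.23.

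These differences depended on single arrays. Labelled KO array 2 was the highest of its group in 17 of the 22 beta genes and the highest of all 6 arrays in 12, and without it the median difference of the subgroup was 0.014. Leaving out labelled KO array 3 gave a median of 0.12, and leaving out control array 3 gave 0.10. Labelled KO array 2 came from the 1 female among the labelled KO animals. With sex as a covariate the median was 0.11. In labelled KO array 2 oligodendrocyte markers averaged -0.37 and microglia markers -0.29 relative to the control mean. In the other labelled KO arrays these averages were 0.12 and 0.40 for oligodendrocyte markers and -0.12 and 0.50 for microglia markers. The controls themselves spread, with -0.21, -0.21 and 0.42 for oligodendrocyte markers and -0.13, -0.031 and 0.16 for microglia markers. The part of sex and of these cell types in the beta values was not tested.

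Along the cluster, the arrays fell into a pattern of stretches, which was noticed in these values and is given without a test. In control array 3 all 6 genes from Pcdhb1 to Pcdhb6 lay above their mean over the 6 arrays, by a median of 0.26, whereas 15 of the 16 genes from Pcdhb7 to Pcdhb22 lay below it, by a median of -0.15. In labelled KO array 2 all 16 genes of the second stretch lay above their mean, by a median of 0.22, and the first stretch stood near it, at 0.014. Control array 2 had all 6 genes of the first stretch below their mean, by a median of -0.21, and the second stretch at 0.013. Labelled KO array 3 had 5 of the 6 genes of the first stretch above their mean (median of the stretch 0.051). It had 11 of the 16 of the second below (median -0.093), so both arrays numbered 3 leaned the same way. The median difference between groups was -0.014 for the first stretch and 0.12 for the second. Pcdhb2 shows the first stretch at its widest, with 7.53, 7.83 and 8.05 in the labelled KO arrays and 7.67, 7.61 and 8.43 in the controls. All values of Pcdhb1 (5.41 to 5.97) and Pcdhb14 (6.69 to 7.19) lay below the median of their array, where signal over background is unknown.

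**Figure D3:**
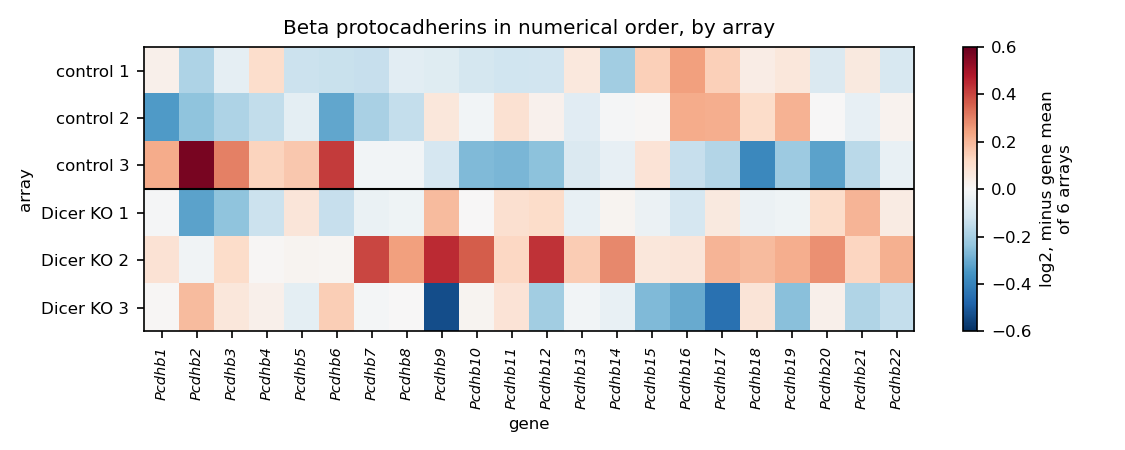
Log2 expression of the 22 beta protocadherins (columns, in numerical order, which is also their order along the chromosome) in the 6 arrays (rows), each gene minus its own mean over the 6 arrays; the colour scale runs from -0.6 to 0.6 on the log2 scale. Control array 3 is above the gene mean in all 6 genes from Pcdhb1 to Pcdhb6 and below it in 15 of the 16 that follow, and labelled KO array 2 is above it in all 16 of these.

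Genes that work with cadherins were read from 5 further lists. Of the 22 measured catenins and adhesion complex partners none passed the threshold, with a median of 0.026. At an unadjusted p under 0.05, 3 were higher and 2 lower, 22.7% of the list beside 14.4% of all genes. Vcl, the actin linker vinculin, read 8.88, 8.94 and 9.15 in the labelled KO arrays and 8.28, 8.62 and 8.57 in the controls, a difference of 0.50 ± 0.12 (SE; limma adjusted p = 0.114). Ctnnd1, the p120 catenin that keeps cadherins at the surface, was at 0.33 ± 0.094 (SE; limma adjusted p = 0.167), also without overlap.

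Among the 22 measured regulators of the protocadherin clusters, Dnmt3a, a de novo DNA methyltransferase, was the 1 gene past the threshold. It read 10.09, 10.06 and 10.13 in the labelled KO arrays and from 8.86 to 9.21 in the controls and rose 2.10-fold, by 1.07 ± 0.10 (SE; limma adjusted p = 0.0190). Neither Dnmt3a nor any other gene passed with sex as a covariate, without labelled KO array 1 or 2, or without any 1 control array. Of this list 16 of 22 lay above 0, beside 9434 of the 19938 genes. The median was 0.16, beside -0.0092 over all genes. At an unadjusted p under 0.05, 5 were higher and 1 lower, where 7.01% and 7.39% of all genes were. Together these are 27.3% of the list, beside 14.4% of all genes.

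Of the 22 measured other members of the cadherin superfamily none passed, with a median of 0.014. Fat3, a giant cadherin of neuronal processes, was the lowest of them at -1.15 ± 0.19 (SE; limma adjusted p = 0.0531), and Fat4 was at 0.35 ± 0.11 (SE). None of the 20 measured cadherin processing enzymes passed, with a median of 0.059. The membrane metalloproteinase gene Mmp14 was at 0.32 ± 0.086 and the gamma-secretase subunit gene Aph1a at 0.25 ± 0.085 (SE). None of the 17 measured protocadherin signalling partners passed either, with a median of 0.029. The WAVE complex subunit gene Brk1 was at -0.34 ± 0.11 and the WAVE gene Wasf2 at 0.17 ± 0.098 (SE).

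**Figure D4:**
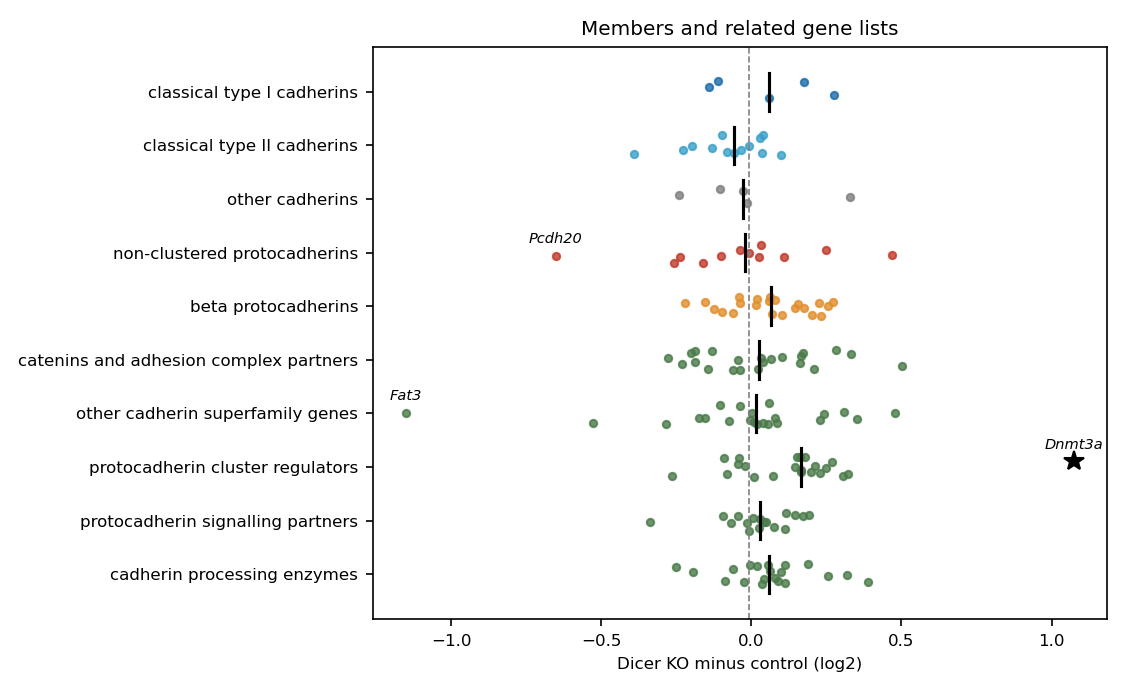
Difference of the mean log2 expression, arrays labelled Dicer KO minus control, for each gene of the 5 subgroups of members and of 5 related lists; vertical bars are list medians, the dashed line is the median of all genes (-0.0092), the star marks a limma adjusted p under 0.05 and vertical placement within a row is arbitrary. Dnmt3a is the 1 starred gene, and Pcdh20 at -0.65 and Fat3 at -1.15 are the lowest of their rows.

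Excitatory neurons are the cells in which the driver acts, and the levels of their markers stand beside the values above. Relative to the control mean, the 10 measured excitatory neuron markers averaged -0.083, -0.095 and -0.15 in the labelled KO arrays, with -0.053 to 0.058 in the controls. The markers went both ways, 4 above 0 and 6 below, with a median of -0.055. Nrgn, the postsynaptic protein neurogranin, was the 1 marker past the threshold, at -0.60 ± 0.088 (SE; limma adjusted p = 0.0413), and Neurod6 was at -0.45 ± 0.15. Nrgn, like Dnmt3a, did not pass in the fits where limma called no gene. The 11 GABAergic interneuron markers had array means of -0.060 to 0.17 in the labelled KO arrays and of -0.14 to 0.17 in the controls, and none passed. In each remaining marker list no gene passed, and the genes of smallest p were these. For astrocytes they were Gja1 at 0.44 and Gfap at 1.07, for mural cells Pdgfrb at 0.36 and Vtn at 0.31, and for meninges and fibroblasts Igf2 at 0.49 and Slc6a13 at 0.28. For endothelium they were Emcn at -0.29 and Pecam1 at 0.26, for oligodendrocytes Ugt8a at -0.38 and Cnp at 0.16, and for microglia Tmem119 at -0.29 and C1qb at 0.31. For interneurons they were Vip at 0.32 and Npy at -0.32, for choroid plexus Kcnj13 at 0.29 and Ttr at 1.28, and for olfactory bulb Lhx5 at -0.24 and Synpr at -0.36. The standard errors of these 18 differences ran from 0.084 to 0.53, and their limma adjusted p from 0.120 to 0.770. The 8 choroid plexus markers had 4 above 0 and 4 below, with a median of -0.0071. Ttr read 8.30 in labelled KO array 3, within the controls of 8.18 to 8.73. Of the 9 astrocyte markers 7 lay above 0 and 2 below (median 0.099), and of the 8 mural markers 6 above and 2 below (median 0.13). Gfap read 10.44 in labelled KO array 3, beside 9.10 and 8.92 in arrays 1 and 2. The part of the makeup of the tissue in the values of Pcdh20, Pcdh8 and Cdh22 was not tested.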

How the data were processed

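The authors deposited 1 log2 value per probe set and array for 35557 probe sets; the submitters' processing notes list RMA and limma with no version. How background was treated is not given in the sources used here. The RMA summary draws differences of dim transcripts towards 0, and nearly equal quantiles of the 6 arrays would hide a shift common to most genes. No detection call was used, so the number of arrays limits the precision.

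Of the 21789 probe sets with 1 gene symbol, the one with the highest mean over the arrays was kept per gene, which left 19938 genes. The annotation's symbols can be old, and 21698 of these probe sets were matched by gene identifier to mouse genes of GRCm38.p6. For the 4 members with several probe sets of 1 symbol, both gave the same sign. A further 3 probe sets list Cdh11 with other genes and were left out. Two-sided tests used limma 3.58.1 in R 4.3.3 (lmFit, eBayes, group as the only term), Benjamini-Hochberg adjusted p-values across the 19938 genes and a cutoff of 0.05, and were tested on simulated data. Each array is labelled as a separate biological replicate. With 3 arrays a group, the smallest two-sided p of an exact permutation test is 0.1, so none is given.

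The members and lists were chosen with earlier results of these data known. Genes were named by rule: members at an unadjusted p under 0.05 without overlap, the 2 of smallest p per subgroup, a set of neural and vascular members whatever their values, and in other lists those past the threshold or else the 2 of smallest p. Other genes named were chosen after their values were seen.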

Additional observations from a re-analysis of the deposited data

How the results depend on the processing

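The count of members past the threshold was 0 in the main analysis and in the fits with a block, without any 1 array, with other scalings, with the mean of probe sets, with another variance prior and with sex as a covariate. It was 1 (Pcdh20) with the dimmer genes left out, and 1 at an adjusted p under 0.1. With sex as a covariate, without labelled KO array 1 or 2, or without any 1 control array, limma called 0 of all genes. The count of members could only be 0 in those fits, so it says nothing about stability. Without labelled KO array 3 limma called 129 of all genes. Members higher at an unadjusted p under 0.05 numbered 5, with a range of 2 to 6 without 1 array and 3 with sex as a covariate. The median difference of other cadherins was 0.33 with the dimmer genes left out, where Cdh13 alone remained. Without 1 array, the median ranged from -0.0025 to 0.099 for type I cadherins, -0.13 to 0.024 for type II cadherins, -0.075 to 0.0029 for other cadherins, -0.10 to 0.023 for non-clustered protocadherins, 0.014 to 0.12 for beta protocadherins and -0.020 to 0.036 for all members. Of the 22 named members, 15 kept their sign under every alternative run, which were 13, or 12 for Cdh15 and Cdh16, which are among the dimmer genes. The other 7 changed sign only when 1 array was left out, with ranges of -0.0025 to 0.34 for Cdh1, -0.26 to 0.023 for Cdh4, -0.20 to 0.035 for Cdh11, -0.053 to 0.11 for Cdh19, -0.10 to 0.014 for Pcdh9, -0.041 to 0.073 for Pcdh17 and -0.020 to 0.23 for Pcdh19; the cause was not tested.

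Same-numbered arrays deviated together with r of 0.089, 0.17 and 0.29 across genes, and differently numbered ones with r from -0.23 to 0.094. Whether the numbers pair the animals or mark a shared batch is not labelled and was not tested. With the array number as a replicate block, limma called 215 of all genes in place of 56 and 0 members, 7 members were higher and 5 lower at an unadjusted p under 0.05, and Pcdh20 had an adjusted p of 0.0593.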
